A study of Homo sapiens with 12 samples.

Results

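DUSP4, DUSP5, DUSP6, DUSP10, SPRY1, SPRY2, SPRY4, SPRED1, SPRED2 and ETV5 are 10 genes whose transcripts are known to follow the activity of the ERK pathway, and most of their products brake it. They were chosen by symbol, and all 10 were found among the 60664 genes of the count table. RNA was sequenced from TOM-1 and RS4;11, a pair of human B-cell acute lymphoblastic leukaemia lines that the labels call wild-type lymphoblasts. TOM-1 carries the Philadelphia chromosome, which encodes the BCR::ABL1 kinase, and RS4;11 carries a KMT2A rearrangement. Each line was cultured for 24 h in serum-containing medium either as a control or with ADI-PEG20 at 1000 ng/ml, and each of the 4 groups had 3 libraries. The agent is arginine deiminase coupled to polyethylene glycol, which turns the arginine of the medium into citrulline. Each genotype was represented by 1 line, and the labels do not say that libraries of a group came from separate cultures, so p-values measure only the spread between these samples.

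ERK is the last kinase of a cascade in which RAS activates RAF, RAF activates MEK and MEK activates ERK, and it is driven by growth factor receptors, by the pre-B-cell receptor and by kinase fusions such as BCR::ABL1. Active ERK induces its own inhibitors. DUSP phosphatases remove phosphate from ERK or from the related stress kinases JNK and p38, Sprouty proteins (SPRY) act between receptors and RAF, SPRED proteins bring the RAS inactivator neurofibromin to the membrane, and ETV5 is an ETS-family transcription factor induced along with them.

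Total counts per library ran from 18958144 to 35956959, and 1 library stood apart. In TOM-1 control replicate 3, 14963 genes were detected, while the others had between 19857 and 21997. Ribosomal protein genes took 17.84% of its counts, against 8.36% and 8.13% in the other TOM-1 controls and 5.33% to 5.46% in treated TOM-1. Results for the feedback genes are therefore given with all 12 libraries and, where they differ, without that one. Between this library and the mean of the other TOM-1 controls, SPRED2 differed by -1.55, SPRED1 by -1.23, SPRY1 by -0.57, ETV5 by -0.54 and DUSP6 by -0.38 in log2 CPM (counts scaled to library size, with 0.5 CPM added), against a median of -0.17 over all tested genes. The same difference was 0.44 for DUSP10, 0.30 for SPRY4 and 0.08 for SPRY2. All 8 B-lymphoblast markers had reads in every group. They summed to 5360 to 6650 CPM in TOM-1 and 1950 to 2270 in the other line, a gap mostly due to DNTT. DNTT alone was at 3267.33 to 4030.72 CPM in TOM-1 and at 65.04 to 92.83 CPM in RS4;11. Of the others, CD79B was higher in TOM-1 and CD79A in RS4;11, in every library. T-cell markers summed to at most 0.319 CPM and erythroid markers to at most 0.478 CPM, while myeloid markers summed to 10.2 to 26.7 CPM, including MPO in TOM-1. Fibroblast markers summed to 3.43 to 7.7 CPM in RS4;11, all from COL1A1, and to at most 0.369 CPM in TOM-1, with COL1A2 and DCN at 0 in every group. The myeloid marker CSF1R was at 4.09, 4.17 and 4.36 CPM in the TOM-1 controls and at 0.39, 0.57 and 0.39 CPM in treated TOM-1, and the part of these markers in the results was not tested. In bulk RNA, fewer cells of a type and less RNA per cell cannot be told apart.

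RefSeq promoter windows on GRCh38.p14 were searched for 7 of the 10 genes, as 12 windows of 250 bases ending at a transcription start. DUSP4 was left out of this search, and ETV5 and DUSP5 had no window in the reference used. The 4 printed here belong to DUSP6, the feedback gene with the highest level in TOM-1, and to DUSP10 and SPRY2, the genes whose response to ADI-PEG20 was called different between the lines. Capitals mark GGAA, the core of ETS-factor motifs, or TTCC, the same core on the opposite strand. The windows are DUSP6 at chr12:89352502-89352751, an outer DUSP10 start at chr1:221742090-221742339, an inner DUSP10 start at chr1:221736901-221737150 and SPRY2 at chr13:80341127-80341376, all read from the minus strand.
DUSP6: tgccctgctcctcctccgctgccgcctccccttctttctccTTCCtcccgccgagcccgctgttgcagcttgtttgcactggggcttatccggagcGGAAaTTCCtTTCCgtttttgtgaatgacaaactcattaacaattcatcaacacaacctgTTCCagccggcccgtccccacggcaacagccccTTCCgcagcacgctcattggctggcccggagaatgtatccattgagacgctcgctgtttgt
DUSP10 outer start: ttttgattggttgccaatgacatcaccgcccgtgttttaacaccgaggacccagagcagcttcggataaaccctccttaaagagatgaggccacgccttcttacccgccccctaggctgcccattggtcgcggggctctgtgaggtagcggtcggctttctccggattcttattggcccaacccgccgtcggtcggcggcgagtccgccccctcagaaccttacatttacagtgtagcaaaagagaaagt
DUSP10 inner start: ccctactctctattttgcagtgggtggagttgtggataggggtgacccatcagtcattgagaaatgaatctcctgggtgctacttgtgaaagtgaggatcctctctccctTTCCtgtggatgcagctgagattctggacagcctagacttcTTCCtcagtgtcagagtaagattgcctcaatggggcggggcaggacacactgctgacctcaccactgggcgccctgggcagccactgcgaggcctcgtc
SPRY2: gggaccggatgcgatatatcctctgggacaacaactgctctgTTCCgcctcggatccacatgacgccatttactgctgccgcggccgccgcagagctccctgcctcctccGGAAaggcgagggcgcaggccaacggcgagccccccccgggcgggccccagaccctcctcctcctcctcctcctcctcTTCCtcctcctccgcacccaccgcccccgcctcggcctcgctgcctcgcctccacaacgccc
The DUSP6 window held 6 cores, the printed SPRY2 window 3 (its other 2 windows held 4 each), the inner DUSP10 window 2 and the outer DUSP10 window 0. Searched on both strands, at least 1 GGAA was found in 11 of the 12 windows of these 7 genes. It was found in 92.7% of all 35116 windows, with a median of 3. The longer ETS motif CCGGAAG, which contains GGAA, was found in 1 of the 12 (a SPRY1 window at chr4:123398136-123398385) and in 8.5% of all windows. The AP-1 motif TGANTCA was in 0 of the 12 and 6.6% of all, and the cyclic AMP response element TGACGTCA was in 0 of the 12 and 1.6% of all. The composite ATF4 and C/EBP motif TGATGNAA was in 1 of the 12 (a SPRED2 window at chr2:65366779-65367028) and in 3.1% of all. A match is a description of the letters and not of binding.

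The first comparison set the lines against each other in control culture. DUSP6, ETV5, SPRY4 and SPRY1 were higher in TOM-1 and DUSP4 was lower, while the differences of DUSP10, SPRY2, SPRED1 and SPRED2 did not pass the test. DUSP5 (ENSG00000138166, chr10:110497838-110511544, plus strand), which encodes a nuclear phosphatase of ERK, had 0 counts in all 12 libraries, which allows up to 0.0853 to 0.166 CPM per library, and was not tested. The other 9 genes passed the filter on low counts. Of these, 5 were called by edgeR's quasi-likelihood test at an adjusted p of 0.05 (4 higher and 1 lower in TOM-1), beside 34.7% of all tested genes (16.2% higher and 18.4% lower). The median log2 fold change of the 9 genes, TOM-1 over the other line, was 0.78, against 0.01 over all tested genes.

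DUSP6 (ENSG00000139318, chr12:89347232-89353271, minus strand, GENCODE 29 on GRCh38) encodes a cytoplasmic phosphatase specific for ERK. It stood at 244.3, 248.3 and 188.7 CPM in the TOM-1 controls and at 6.095, 5.191 and 4.352 CPM in the RS4;11 controls. The groups were far from overlapping, with means of 227.1 ± 33.3 and 5.212 ± 0.872 CPM (SD, n = 3). This came to 5.44 on the log2 scale (SE 0.21, 43.5-fold, adjusted p = 9.33e-09), or 5.55 when TOM-1 control replicate 3 was left out. The annotation places the antisense gene AC024909.2 over 40.5% of the exonic bases of DUSP6, and whether counting used strand is not given in the sources used here. The counts given to that antisense gene were 0% to 1.22% of those of DUSP6 in TOM-1 and 0% to 13.82% in the other line.

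DUSP4 (ENSG00000120875), a nuclear phosphatase of the same family, showed the opposite order. It had 0, 2 and 0 counts in the TOM-1 controls and 25, 36 and 20 in the RS4;11 controls, so the groups did not overlap. The level in the RS4;11 controls was 46.7 times that in the TOM-1 controls (95% interval 12.5 to 392, counting error only). The adjusted p by edgeR was 0.00529. Since DUSP4 passed the filter on low counts only through the RS4;11 libraries, this p-value is no separate support for the difference. Without replicate 3 the ratio was 36 (9.64 to 302). DUSP10 (ENSG00000143507, chr1:221701424-221742176, minus strand), which acts mainly on p38 and JNK, stood at 7.881 ± 1.61 CPM in the TOM-1 controls and 6.328 ± 1.34 in the RS4;11 controls (SD, n = 3), and these groups overlapped. The log2 fold change was 0.31 (95% interval -0.17 to 0.79).

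Of the Sprouty genes, SPRY4 (ENSG00000187678, chr5:142310427-142326455, minus strand) was at 4.064, 3.393 and 4.69 CPM in the TOM-1 controls and at 0.7296, 0.8651 and 0.526 CPM in the RS4;11 controls. Each TOM-1 value was above each of the other line, with a log2 fold change of 2.50 (SE 0.39, 5.67-fold, adjusted p = 0.000293). SPRY1 (ENSG00000164056, chr4:123396795-123403760, plus strand) was at 7.599 ± 1.72 against 3.515 ± 0.799 CPM (SD, n = 3), higher in TOM-1 by 1.12 on the log2 scale (SE 0.26, 2.17-fold, adjusted p = 0.00542). SPRY2 (ENSG00000136158, chr13:80335976-80340951, minus strand) stood at 35.51 ± 1.17 CPM in the TOM-1 controls and 34.91 ± 3.33 CPM in the RS4;11 controls, a log2 fold change of 0.02 (95% interval -0.24 to 0.29). Of the 3, SPRY2 was the 1 whose control libraries overlapped between the lines.

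SPRED1 (ENSG00000166068, chr15:38252326-38357249, plus strand) and SPRED2 (ENSG00000198369, chr2:65310851-65432637, minus strand) depended on TOM-1 control replicate 3. With all libraries, SPRED2 had a log2 fold change of 0.78 (adjusted p = 0.0784, or 0.0218 with no filter on low counts) and SPRED1 one of 0.02 (adjusted p = 0.967). Without it, SPRED2 was higher in TOM-1 by 1.13 (SE 0.12, adjusted p = 9.75e-08) and SPRED1 by 0.32 (SE 0.12, adjusted p = 0.0336) on the log2 scale. The count of feedback genes called was then 7 of 9 (6 higher and 1 lower), beside 52.8% of all tested genes. SPRED1 counts among the 7, though its control libraries overlapped between the lines. DESeq2 and a replicate block on the same libraries did not call SPRED1 (adjusted p of 0.0653 or more). ETV5 (ENSG00000244405, chr3:186046308-186110318, minus strand) was at 114, 112.6 and 77.74 CPM in the TOM-1 controls and 10.26, 8.651 and 7.986 CPM in the RS4;11 controls. These groups did not overlap, and the log2 fold change was 3.50 (SE 0.18, 11.3-fold, adjusted p = 4.93e-08).

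**Figure D1:**
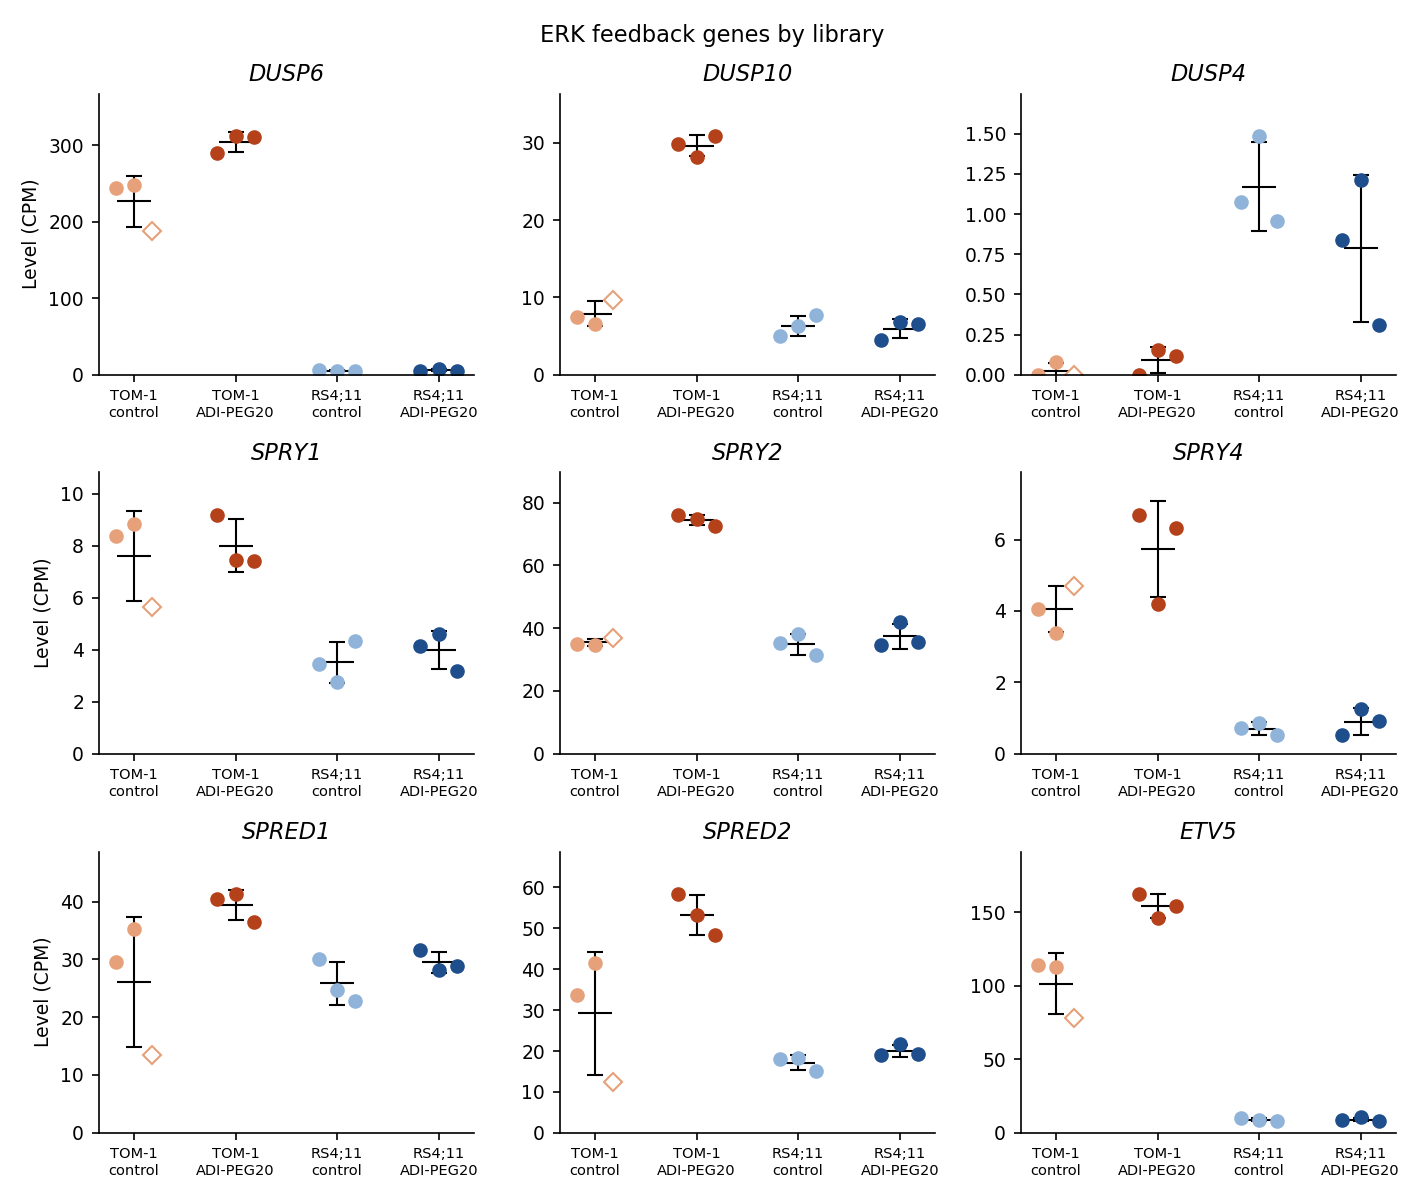
Level of 9 feedback genes in every library, in TMM-scaled CPM, by group; points are libraries, bars the mean ± SD of 3 libraries, and the open diamond is TOM-1 control replicate 3. DUSP6 and ETV5 stand high in both TOM-1 groups, DUSP10 and SPRY2 in treated TOM-1 (29.63 and 74.45 CPM on average), and DUSP5, with 0 counts in all 12 libraries, is not drawn.

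Divided by exonic length, levels could be ordered between genes. In the TOM-1 controls DUSP6 led at 49.0 CPM per kb, followed by ETV5 at 17.5 and SPRY2 at 11.7, each apart from the next in every library. SPRED2 at 5.67, SPRED1 at 3.16 and DUSP10 at 2.70 CPM per kb followed, where SPRED1 overlapped both of these neighbours, and then SPRY1 at 1.92 and SPRY4 at 0.617. In the RS4;11 controls SPRY2 led at 11.5 CPM per kb, and DUSP6 at 1.13 was sixth, overlapping SPRY1 at 0.887. In treated TOM-1 the first 4 kept their order of means, at 65.7 (DUSP6), 26.5 (ETV5), 24.5 (SPRY2) and 10.3 (SPRED2) CPM per kb, and DUSP10 reached 10.2, overlapping SPRED2 and above SPRED1 at 4.77. In treated RS4;11 the order of means matched that of its controls except for SPRY4 at 0.137 and DUSP4 at 0.108 CPM per kb, which overlapped in both groups.

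**Figure D2:**
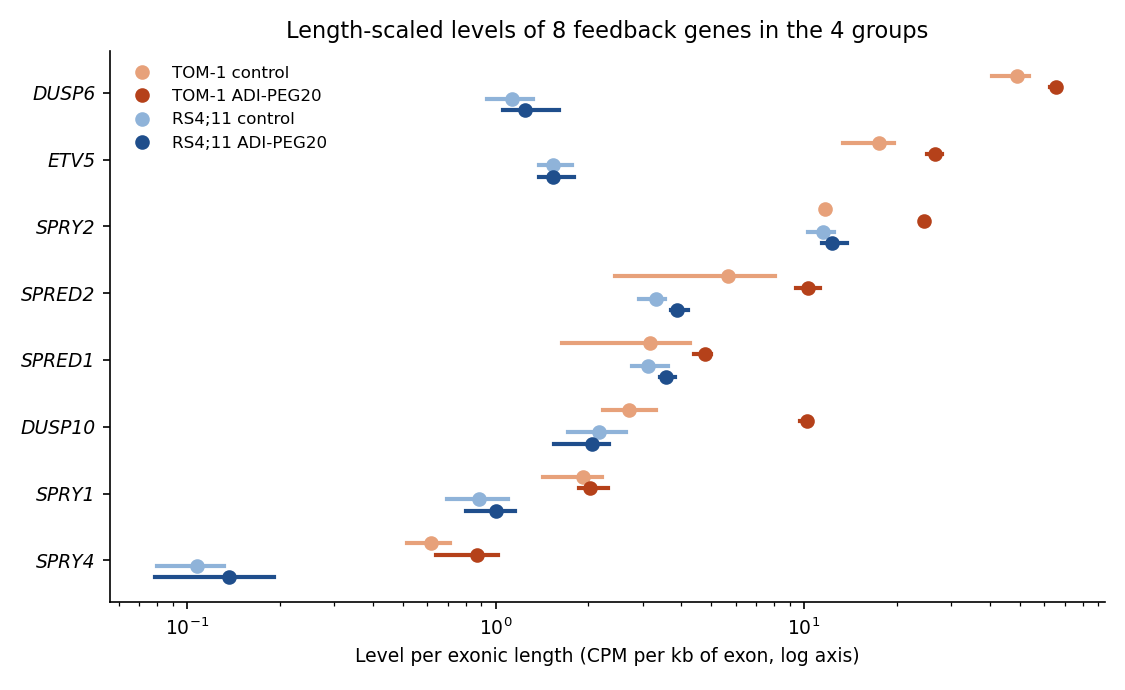
Level per exonic length, in CPM per kb of exon on a log axis, of 8 feedback genes in the 4 groups; points are group means and bars run from the lowest to the highest library. DUSP6 leads in both TOM-1 groups (49.0 and 65.7 CPM per kb), SPRY2 leads in both RS4;11 groups (11.5 and 12.3), and DUSP10 is at 10.2 CPM per kb in treated TOM-1 against 2.70 in its control.

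The next comparison asked how the feedback genes stood after 24 h of ADI-PEG20 in TOM-1. DUSP10, SPRY2 and ETV5 rose, by 3.77-fold, 2.1-fold and 1.52-fold, and no feedback gene fell. These 3 of the 9 tested genes were called, beside 15.9% of all tested genes called higher and 31.9% called in either direction. All 9 log2 fold changes were above 0, with a median of 0.60 against 0.05 over all tested genes. DUSP4 counts among the 9, though it had only 2 counts in the controls and 7 with treatment. Without TOM-1 control replicate 3, 8 of the 9 were above 0, at a median of 0.50 against 0 over all tested genes. The groups did not overlap for 6 genes (DUSP6, DUSP10, SPRY2, SPRED1, SPRED2 and ETV5), all higher with treatment, beside 26.1% of all tested genes. The same control libraries served this comparison and the one between the lines.

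Among the phosphatases, DUSP10 was at 7.474, 6.513 and 9.655 CPM in the controls and at 29.88, 28.18 and 30.84 CPM with ADI-PEG20. Each treated library was well above each control, and the mean went from 7.881 ± 1.61 to 29.63 ± 1.35 CPM (SD, n = 3). The log2 fold change was 1.91 (SE 0.22, 95% interval 1.43 to 2.40, adjusted p = 9.24e-05). It was 2.08 with TOM-1 control replicate 3 left out (SE 0.20, adjusted p = 2.01e-08). DUSP6 went from 227.1 ± 33.3 CPM to 289.9, 311.8 and 311.5 CPM, and the groups did not overlap. Its log2 fold change was 0.42 (SE 0.17, adjusted p = 0.086), which did not pass the test, and without replicate 3 it was 0.30 (SE 0.09, adjusted p = 0.012), which did. DUSP4 had 0, 4 and 3 counts with treatment, too few to compare with the controls, at a ratio of 3.69 (95% counting interval 0.702 to 36.4).

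Of the Sprouty genes, which act upstream of RAF, SPRY2 was at 34.95, 34.71 and 36.86 CPM in the controls and at 75.9, 74.79 and 72.64 CPM with treatment. Both groups were tight and far apart, at a log2 fold change of 1.07 (SE 0.12, 95% interval 0.80 to 1.33, adjusted p = 7.79e-05), and here TOM-1 control replicate 3 lay close to its group, since the value without it was 1.09. SPRY4 was at 6.678, 4.2 and 6.332 CPM with treatment, overlapping its controls, with a log2 fold change of 0.50 (95% interval -0.26 to 1.27, adjusted p = 0.31). SPRY1 also overlapped, at 7.599 ± 1.72 CPM in controls and 8.0 ± 1.01 CPM with treatment (SD, n = 3). Its log2 fold change was 0.07 (95% interval -0.48 to 0.62), or -0.10 without replicate 3.

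SPRED2 was at 33.62, 41.57 and 12.52 CPM in the controls and 58.31, 53.22 and 48.46 CPM with treatment. The low control value was that of replicate 3, and no treated library was below a control. The log2 fold change was 0.86 (SE 0.31, adjusted p = 0.0538), which missed the threshold. On the same 12 libraries it was called with DESeq2 (0.84, adjusted p = 0.0289), with a replicate block (0.95, adjusted p = 0.0297) and with no filter on low counts (adjusted p = 0.0106). Without replicate 3 it was smaller and called, at 0.50 (SE 0.12, adjusted p = 0.00181). SPRED1 was at 29.5, 35.3 and 13.52 CPM in the controls and at 40.5, 41.23 and 36.38 CPM with treatment, again with replicate 3 lowest. Its log2 fold change was 0.59 (SE 0.27, adjusted p = 0.113), or 0.28 (adjusted p = 0.0732) without that library. Both SPRED genes were called when TOM-1 control replicate 2 was left out in its place, SPRED2 at 1.16 (adjusted p = 0.0171) and SPRED1 at 0.82 (adjusted p = 0.0372).

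ETV5, the transcription factor of the set, was at 162, 145.8 and 154 CPM with treatment, above all 3 controls. The log2 fold change was 0.60 (SE 0.17, 95% interval 0.24 to 0.96, adjusted p = 0.0159), or 0.44 when control replicate 3 was left out (SE 0.09, adjusted p = 0.000528). The ETV5 call was lost without treated replicate 1 (0.55, adjusted p = 0.0718), without treated replicate 3 (0.57, adjusted p = 0.0606) and in a fit on the 6 TOM-1 libraries alone (0.57, adjusted p = 0.0753). Without TOM-1 control replicate 3 the feedback genes called were 5 of 9, all higher (DUSP10, SPRY2, SPRED2, ETV5 and DUSP6), beside 21.8% of all tested genes called higher and 41.6% called in either direction. Leaving out TOM-1 control replicate 2 in its place also gave 5, beside 31.8% of all tested genes called in either direction.

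In RS4;11 the same treatment gave no called feedback gene, with log2 fold changes near 0 for DUSP10 and SPRY2. DUSP10 was at 5.022, 6.262 and 7.699 CPM in the controls and at 4.504, 6.801 and 6.607 CPM with treatment. These groups overlapped, with a log2 fold change of -0.09 (95% interval -0.57 to 0.40). SPRY2 was at 35.37, 37.98 and 31.37 CPM in the controls and at 34.56, 41.92 and 35.59 CPM with treatment, also overlapping, with a log2 fold change of 0.10 (95% interval -0.16 to 0.36). The interval of SPRY2 thus lay below its estimate in TOM-1, and so did that of DUSP10.

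For ETV5 the log2 fold change in RS4;11 was 0.00 (95% interval -0.39 to 0.38), for DUSP6 it was 0.15 (-0.27 to 0.57), for SPRED1 0.19 (-0.39 to 0.77) and for SPRY1 0.18 (-0.39 to 0.75). SPRY4 had 0.33 (-0.53 to 1.19), and DUSP4, the gene this line held above TOM-1, was at 1.171 ± 0.277 CPM in controls and 0.7862 ± 0.456 CPM with treatment (SD, n = 3). SPRED2 was the 1 gene of the 9 whose groups did not overlap, at 18.07, 18.25 and 15.02 CPM in controls and 19.09, 21.66 and 19.31 CPM with treatment, beside 7.72% of all tested genes that lay higher in this way. Its log2 fold change was 0.23 (95% interval -0.46 to 0.92). edgeR called 0 of the 9 genes, beside 0% of all tested genes, and DESeq2 also called 0, beside 0%. At an unadjusted p under 0.05 by edgeR the count was 0 as well, beside 325 of the 17349 genes tested. Without TOM-1 control replicate 3, which enters this comparison through the shared estimate of spread, 0 were called beside 0.317% of all tested genes. In that fit 0 of the 9 had an unadjusted p under 0.05, beside 2207 of the 18321 genes tested. On those libraries DESeq2 and a replicate block also called 0 of the 9, beside 1.3% and 1.14% of all tested genes.

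**Figure D3:**
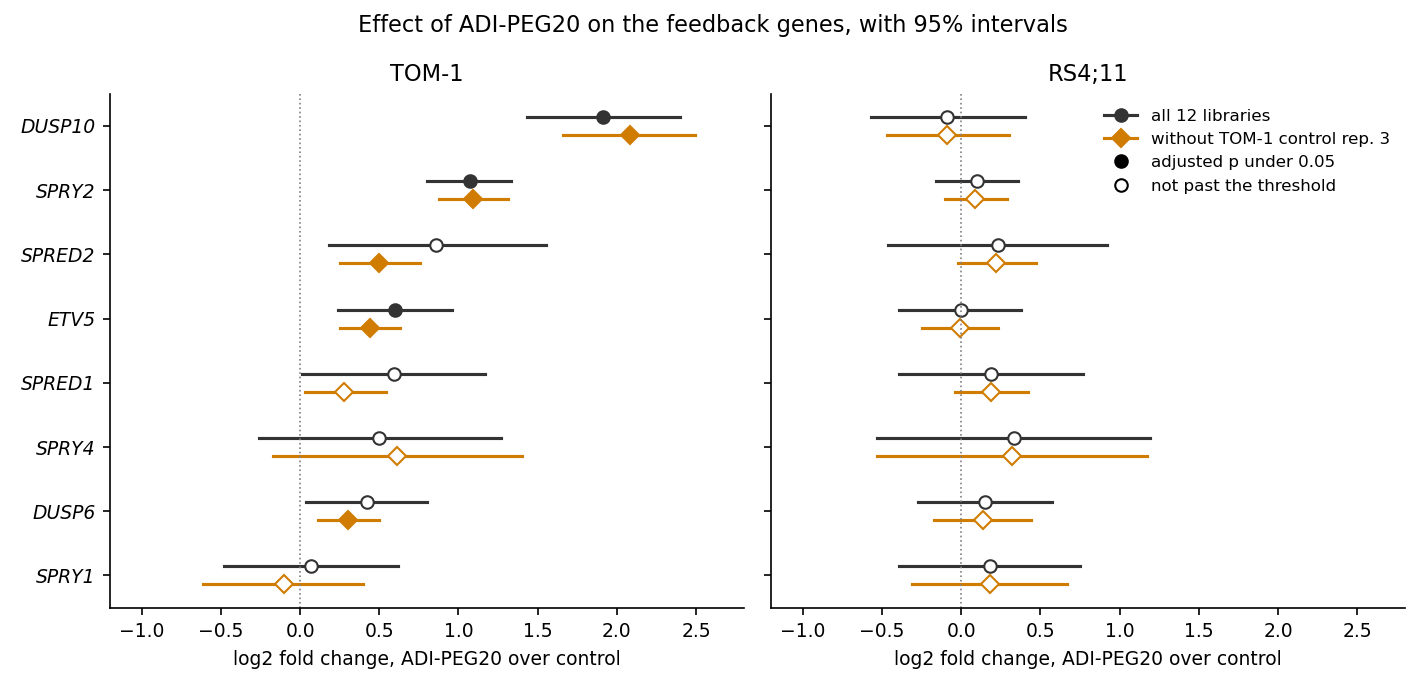
Log2 fold change of ADI-PEG20 over control for 8 feedback genes in each line, with 95% intervals, from all 12 libraries (circles) and without TOM-1 control replicate 3 (diamonds); filled symbols passed an adjusted p of 0.05. In TOM-1, DUSP10 (1.91), SPRY2 (1.07) and ETV5 (0.60) are filled with all libraries, and in RS4;11 none is.

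Whether the lines differed in their response was tested as the difference of the 2 effects, TOM-1 minus RS4;11, which uses the control libraries of both. DUSP10 and SPRY2 responded more in TOM-1, and these 2 of 9 genes were called, beside 5.89% of all tested genes called in that direction and 11.9% in either. The difference in log2 fold change was 2.00 for DUSP10 (SE 0.31, 95% interval 1.32 to 2.68, adjusted p = 0.00218) and 0.97 for SPRY2 (SE 0.17, 95% interval 0.60 to 1.34, adjusted p = 0.00416). For ETV5 it was 0.61 (SE 0.24, adjusted p = 0.125) with all libraries and 0.45 (SE 0.15, adjusted p = 0.0249) without TOM-1 control replicate 3, when 3 genes were called beside 15.7% of all tested genes in that direction and 30.4% in either. The other differences did not pass the test in either fit, among them 0.64 for SPRED2 (95% interval -0.33 to 1.61) and 0.27 for DUSP6 (95% interval -0.29 to 0.84). Both intervals include no difference and differences as large as the effect in TOM-1.

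The pathway around the feedback genes was described through 4 lists, beside 15.9% of all tested genes called higher and 15.9% called lower in TOM-1 (21.8% and 19.8% without TOM-1 control replicate 3). Of the RAS-ERK cascade, 28 of 29 genes were tested in TOM-1, and 12 rose and 1 fell with ADI-PEG20, at a median log2 fold change of 0.50 against 0.05 over all tested genes. When TOM-1 control replicate 3 was left out, 14 rose and 2 fell at a median of 0.20. The count of 13 called genes depended on the libraries. It was 6 or 7 without any 1 treated TOM-1 library, beside 21.7% to 22.1% of all tested genes. Without any 1 RS4;11 library it was 8 or 9, beside 26.8% to 28%. In a fit on the 6 TOM-1 libraries alone it was 3, beside 17.2%, so the list did not stand above all tested genes there. The genes that rose included GAB2, an adaptor that BCR::ABL1 uses to engage RAS signalling, from 171.2 ± 47.2 to 658.6 ± 2.46 CPM (SD, n = 3; log2 fold change 1.94, adjusted p = 1.59e-05). The RAF kinase BRAF went from 59.86 ± 24.7 to 173.6 ± 0.959 CPM (1.53, adjusted p = 0.000955, or 1.23 without replicate 3), and the RAS activator RASGRP3 from 14 to 94 counts in all. SOS1 (0.90), SOS2 (0.94) and the MEK gene MAP2K1 (0.52, adjusted p = 0.0389, called in 9 of 20 alternatives) were also higher, and so were NF1 (1.30) and RASA2 (0.80), whose products inactivate RAS. Without TOM-1 control replicate 3 these were smaller, at 0.53 for SOS1, 0.55 for SOS2, 0.48 for RASA2 and 0.88 for NF1. RPS6KA1, a kinase that ERK activates, fell by 0.47 on the log2 scale. The ERK gene MAPK3 had a log2 fold change of -0.40 (adjusted p = 0.0968) and the MEK gene MAP2K2 one of -0.74 (adjusted p = 0.102), or -0.06 without replicate 3.

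Of the early genes that ERK is known to induce, 22 of 25 were tested in TOM-1, and 5 rose and 1 fell with ADI-PEG20, at a median log2 fold change of 0.38. When TOM-1 control replicate 3 was left out, 7 rose and 1 fell at a median of 0.23. JUN went from 4.037 ± 1.78 to 89.31 ± 8.38 CPM (SD, n = 3; log2 fold change 4.44, adjusted p = 1.91e-06), ATF3 from 11.9 ± 1.26 to 94.98 ± 1.85 CPM (3.00, adjusted p = 1.22e-06) and KLF6 from 32.32 ± 14.5 to 161.5 ± 8.21 CPM (2.32, adjusted p = 0.00012). All 3 encode transcription factors that stress pathways also induce, and FOSL2 (0.54) and IER5 (0.40) rose as well. MYC fell from 459.6 ± 32.3 to 291.1 ± 12.8 CPM (-0.66, adjusted p = 0.000452). EGR1, an immediate target of ERK, had a log2 fold change of 0.47 (adjusted p = 0.305), FOS one of 0.44 (adjusted p = 0.572) and CCND1 one of 0.36 (adjusted p = 0.878), or -0.21 without TOM-1 control replicate 3. ETV4, a close relative of ETV5, had one of -0.38 (adjusted p = 0.495), or 0.04 without TOM-1 control replicate 3.

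Between the lines in control culture, 9 of the 22 early genes tested were higher in TOM-1 and 1 was lower, beside 16.2% and 18.4% of all tested genes. EGR1 was at 24.23 ± 5.6 against 2.983 ± 1.25 CPM (SD, n = 3; log2 fold change 3.03, adjusted p = 3.52e-05), and FOS had a log2 fold change of 2.18 (adjusted p = 0.00882). ETV4 was at 30.52, 34.55 and 65.99 CPM in the TOM-1 controls, where replicate 3 was highest, and at 14 counts in all in the RS4;11 controls (log2 fold change 7.71, adjusted p = 3.58e-06). ETV4 counts among the 9, but it passed the filter on low counts only through the TOM-1 libraries. Its p-value is therefore no separate support for the difference. CCND1 differed by 2.67 (adjusted p = 0.154), or by 3.24 (adjusted p = 0.0052) without TOM-1 control replicate 3, in which it was at 0. CCND1 too passed the filter only through TOM-1 libraries, so these p-values are no separate support either.

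Of the relatives of the feedback genes and other brakes, 16 of 19 were tested in TOM-1, and 3 rose and 4 fell with ADI-PEG20, at a median log2 fold change of 0.22. These counts lay near the share called over all tested genes, and they were 5 and 4 at a median of 0.14 without TOM-1 control replicate 3. DUSP16, which like DUSP10 acts on JNK and p38, went from 27.94 ± 9.81 to 113.9 ± 5.3 CPM (SD, n = 3; log2 fold change 2.02, adjusted p = 6.46e-05), and DUSP1, an inducible nuclear phosphatase, from 40.66 ± 2.29 to 76.21 ± 3.18 CPM (0.91, adjusted p = 0.000103). DUSP22 also rose, by 0.53 on the log2 scale. The genes that fell were PEBP1, an inhibitor of the cascade, from 677.8 ± 173 to 210.3 ± 8.67 CPM (-1.69, adjusted p = 1.84e-05), DUSP2 (-1.61), DUSP14 (-0.62) and DUSP7 (-0.56). Phosphatase genes outside the chosen set therefore moved in both directions. The difference between the lines was called by edgeR for 5 genes of the list, beside 11.9% of all tested genes. It was above 0 for DUSP16 (2.00, adjusted p = 0.0024), DUSP1 (0.92, adjusted p = 0.00277) and DUSP22 (0.61, adjusted p = 0.035). The DUSP22 call held in only 9 of 19 alternatives. Below 0 were PEBP1 (-1.61, adjusted p = 0.000881) and DUSP2 (-1.44, adjusted p = 0.00514).

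The last list was the JNK and p38 cascade, which includes the kinases on which DUSP10 mainly acts. Of its 22 genes, 21 were tested in TOM-1, and 5 rose and 4 fell with ADI-PEG20, at a median log2 fold change of -0.10. GADD45A, an activator of MAP3K4, went from 51.5 ± 10.8 to 161.3 ± 7.49 CPM (SD, n = 3; log2 fold change 1.65, adjusted p = 1.84e-05), and MAP3K1 (1.02), MAP3K4 (0.78) and the JNK genes MAPK8 (0.70) and MAPK9 (0.63) rose as well. The p38 genes MAPK12 (-1.19) and MAPK13 (-0.66) fell, as did MAP3K11 (-0.97) and MAPKAPK3 (-0.82). Without TOM-1 control replicate 3 the changes of MAPK12 (-0.74) and MAP3K1 (0.69) were smaller, and that of GADD45A (1.83) was larger. With TOM-1 control replicate 3 left out, 8 rose and 8 fell at a median of 0.07, above 0 in place of below it. A fit on the 6 TOM-1 libraries alone called 5, beside 17.2% of all tested genes. In RS4;11 edgeR called 0 genes of each of the 4 lists with ADI-PEG20, with all libraries and without that one. The share over all tested genes was 0% and 0.317%, so these counts say nothing particular about the lists. There were 2 exceptions among the named genes under other settings without that library, MAPKAPK3 with a replicate block (adjusted p = 0.0491) and JUN with DESeq2 (adjusted p = 0.00878).

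**Figure D4:**
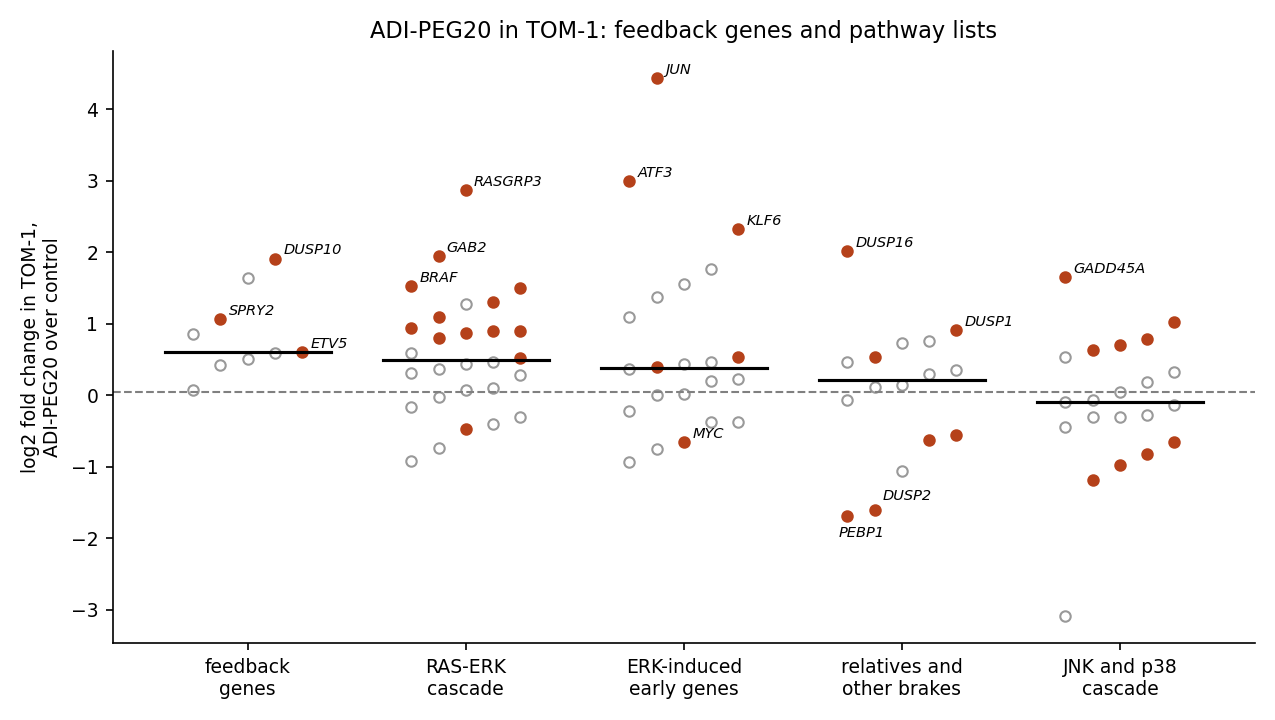
Log2 fold change of ADI-PEG20 over control in TOM-1 for each tested gene of the feedback set and of 4 pathway lists, from all 12 libraries; filled points passed an adjusted p of 0.05, black bars are list medians and the dashed line is the median of all tested genes (0.05). The feedback genes lie between 0.07 (SPRY1) and 1.91 (DUSP10), while the early genes reach 4.44 (JUN) and the other brakes run from -1.69 (PEBP1) to 2.02 (DUSP16).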

How the data were processed

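The authors deposited 1 table of raw read counts per Ensembl gene for 12 poly(A) RNA libraries. The submitters' processing notes name STAR, SAMtools, featureCounts and hg38, while their versions, the annotation release and the strand setting are not given in the sources used here. Groups came from the sample titles, and columns were matched to samples through the descriptions. Symbols were found for 60463 identifiers, and positions and exonic lengths came from GENCODE 29 on GRCh38, which held 58396.

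Counts were fitted in R 4.3.3 with edgeR 4.0.16 (filterByExpr, which kept 17349 genes, TMM scaling, 1 group-means model over all 12 libraries, glmQLFTest, Benjamini-Hochberg adjustment over all tested genes, threshold 0.05). Without TOM-1 control replicate 3, 18321 genes were tested. SE is the size of the log2 fold change divided by the square root of F, and intervals are 95%. Levels are TMM-scaled CPM, divided by exonic length where genes are compared. Counting intervals and limits for 0 counts (3 counts) cover counting error only. The procedure was tested on simulated data.

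Members and lists were chosen with earlier results of these data known. All 10 feedback genes are named, along with a fixed set of pathway genes, of which some results are not reported here, and, per list and direction, up to 3 called genes with the largest change in TOM-1 that had at least 1 CPM in a group and no overlap; further called genes were named after their values were seen. DESeq2 1.42.0, other scalings and filters, a replicate block, a 6-library fit and leaving out each library were alternatives.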

Additional observations from a re-analysis of the deposited data

Results flagged for a closer look

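The response to ADI-PEG20 differed between the lines by a test of the difference for 2 feedback genes. For DUSP10 the log2 fold change was 1.91 in TOM-1 and -0.09 in RS4;11, a difference of 2.00 (adjusted p = 0.00218 by edgeR), with 3 of 3 treated TOM-1 libraries above all controls. For SPRY2 it was 1.07 and 0.10, a difference of 0.97 (adjusted p = 0.00416), again with 3 of 3 treated libraries above all TOM-1 controls. Both were called in all 19 alternatives, in which the difference ran from 1.80 to 2.16 for DUSP10 and from 0.87 to 1.04 for SPRY2. These alternatives include leaving out each of the 12 libraries in turn. With 3 libraries per group, no formal test for an outlying value was made.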

How the results depend on the processing

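The number of feedback genes called with ADI-PEG20 in TOM-1 was 3, beside 31.9% of all tested genes, and ran from 2 to 5 when 1 library was left out. It was 2 without TOM-1 ADI-PEG20 replicate 1 or 3 (21.7% and 22.1% of all tested genes). It was 5 without TOM-1 control replicate 2 or 3 (31.8% and 41.6%). When TOM-1 control replicate 3 was left out, it was 5 with DESeq2 (24.2%) and 6 with the replicate block (41.8%). In TOM-1, DUSP10 kept its call in every alternative run (1.76 to 2.08) and so did SPRY2 (1.01 to 1.13). The count was 0 in RS4;11 in every alternative run, beside 0% to 1.3% of all tested genes. Of the RAS-ERK cascade, 13 genes were called, 6 to 16 with 1 library left out (6 or 7 without a treated TOM-1 library, 8 or 9 without an RS4;11 library, 15 or 16 without a TOM-1 control) and 3 in the 6-library fit. Of the JNK and p38 cascade it was 9, 6 to 16 with 1 library left out, 5 in the 6-library fit, and, without TOM-1 control replicate 3, 15 with DESeq2 and 16 with the replicate block. With 1 library left out, the count of feedback genes for the difference between the lines ran from 2 to 3, beside 6.39% to 30.4% of all tested genes. For TOM-1 against RS4;11 it ran from 5 to 7, beside 25.7% to 52.8%. Over all genes, 5527 were called in TOM-1 (31.9%) and 2639 in the 6-library fit (17.2%). The share over all genes was 21.7% to 22.1% without a treated TOM-1 library and 26.8% to 28% without an RS4;11 library. Without a TOM-1 control it was 31.8% to 41.6%. Replicate numbers were not treated as pairs in the main fit, since the sample titles give numbers and no pairing. Same-number correlations ran from -0.056 to 0.257, against -0.167 to 0.109 for other numbers. They were -0.056 to -0.015 between the TOM-1 groups and 0.076 to 0.257 between the RS4;11 groups. Of the 12 libraries, 8 correlated best with their own number, at most a hint of pairing from the data and not from the design. The 8 are not separate observations, since the same pair can count for both of its libraries. Some would match without pairing, which was not tested. The replicate block over all 12 libraries called 4 feedback genes in TOM-1, 0 in RS4;11, 2 for the difference and 5 between the lines. The shares over all tested genes were 30.7%, 0%, 11.2% and 32.5%.

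Of 710 values of single feedback genes under alternatives, 34 reversed direction, 20 gained a call and 3 lost one. None of those that reversed had a call with all libraries. SPRY1 in TOM-1 (0.07) ran from -0.10 to 0.15 with 1 library left out, was -0.11 with DESeq2 and -0.10 with the block, both without TOM-1 control replicate 3. In RS4;11, ETV5 ran from -0.13 to 0.12 with 1 library left out, and was 0.00 with DESeq2 or its size factors and 0.01 with no filter, DUSP10 ran from -0.22 to 0.09, and DUSP6 from -0.07 to 0.29. SPRY4 for the difference ran from -0.14 to 0.46. Between the lines, SPRED1 ran from -0.29 to 0.32 and was -0.03 with the block, and SPRY2 ran from -0.08 to 0.05 and was -0.03 with DESeq2 and -0.04 with the block without TOM-1 control replicate 3. The causes were not tested. DUSP4 and DUSP5 in TOM-1 were at or near 0 counts, where depth limits any comparison.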
